A study of Mus musculus with 16 samples.

Results

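The genes described here are 10 transcription factors that respond early to stimulation. They are *Fosl1*, *Fosl2*, *Fos* and *Fosb* of the Fos family, *Jun*, *Junb* and *Jund* of the Jun family, and *Atf3*, *Egr1* and *Myc*. They were picked by gene symbol and make up 10 of the 41388 genes in the count table. Fos proteins pair with Jun proteins, and the resulting dimer, AP-1, binds DNA and activates or represses nearby genes; *Atf3* belongs to the same leucine zipper superfamily. Many of these genes are transcribed at a low rate at rest and are switched on within minutes by growth factors, stretch or stress, through kinases that act on factors already present in the cell. In skeletal muscle they are known to respond to exercise, denervation and injury.

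RNA of whole quadriceps was sequenced from mice labelled as C57BL/6 (C57BL6J per the methods) at 36 days of age (35 per the supplement), in 4 groups of 4 libraries. WT mice were littermates per the study's supplement and carried normal *Mtm1*. *Mtm1* KO mice, a model of myotubular myopathy, lacked exon 4 of this phosphoinositide phosphatase gene in the germline and so in all cells, not in muscle fibers alone. WT + TAM and *Mtm1* KO + TAM mice ate chow with tamoxifen citrate, a modulator of estrogen receptors, at 40 mg/kg from day 21 (the labels give the dose both per day and as mixed into the diet), while the other groups had no tamoxifen. The comparisons ask which of these factors differ in muscle without *Mtm1*, and whether tamoxifen alters them.

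*Mtm1* itself was read in every library, as CPM after TMM scaling. It stood at 13.6, 14.4 and 13.7 CPM in WT replicates 2, 3 and 4, and at 12.1, 18.5, 14.7 and 13.8 CPM in WT + TAM replicates 5 to 8. Untreated *Mtm1* KO mice (replicates 9 to 12) had 2.49, 2.06, 2.42 and 3.08 CPM, and *Mtm1* KO + TAM replicates 13 to 16 had 1.77, 2.91, 2.61 and 3.02 CPM. The library labelled WT replicate 1 had 3.82 CPM, close to the knockout libraries and far below the other WT libraries, which goes against its label. Its skeletal muscle markers (248600 CPM, with 98090 to 142400 in the knockout libraries) and the share of its counts in the 10 most abundant genes (26.9%, at most 19.04% in the knockout libraries) lay on the side of the other WT libraries. The values below rest on 14 libraries without the library labelled WT replicate 1 and without *Mtm1* KO replicate 12, which were also left out of the comparisons in the study. *Mtm1* in replicate 12 lay near the other knockout libraries, and no reason for leaving it out was found in the sources. Some results are also given with both libraries added, but not all that they alter. Over the 14 libraries *Mtm1* averaged 13.9 ± 0.458 CPM in WT and 2.32 ± 0.228 in *Mtm1* KO (SD, n = 3 each), and 14.8 ± 2.67 and 2.58 ± 0.568 in their treated counterparts (SD, n = 4 each). A library held 25702605 to 29847222 counts in this set, 25116179 in the library labelled WT replicate 1 and 25979286 in *Mtm1* KO replicate 12. The 11 skeletal muscle markers, led by *Acta1*, summed to 185600 ± 29756 CPM in WT and 111000.0 ± 7881 in *Mtm1* KO (SD, n = 3 each), and 184125 ± 6046 and 119098 ± 18482 in their treated counterparts (SD, n = 4 each). All 11 had counts, so the tissue label holds, and the sums were lower in every knockout library than in every WT library. In whole muscle, fewer cells of a type and less RNA per cell cannot be told apart.

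*Fosl1*, *Junb*, *Atf3*, *Egr1* and *Myc* were higher in every *Mtm1* KO library than in every WT library, and likewise in every *Mtm1* KO + TAM library than in every WT + TAM library. Such a separation upwards was seen for 17.4% of the 14740 genes tested in *Mtm1* KO against WT and for 10.9% of the 14563 tested in *Mtm1* KO + TAM against WT + TAM. It held for the same 5 genes when the library labelled WT replicate 1 and *Mtm1* KO replicate 12 were added, where 7.58% of genes separated upwards in *Mtm1* KO against WT. *Fosl1* went from nearly absent to a clear level, from 0.0282 ± 0.0489 to 3.47 ± 1.14 CPM (SD, n = 3 each), and *Egr1* from 32.3 ± 2.96 to 112 ± 44.4 CPM. The other 5 members, *Fosl2*, *Fos*, *Fosb*, *Jun* and *Jund*, overlapped between the groups in both knockout comparisons. Below, values among untreated mice are *Mtm1* KO against WT and values among treated mice *Mtm1* KO + TAM against WT + TAM.

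**Figure D1:**
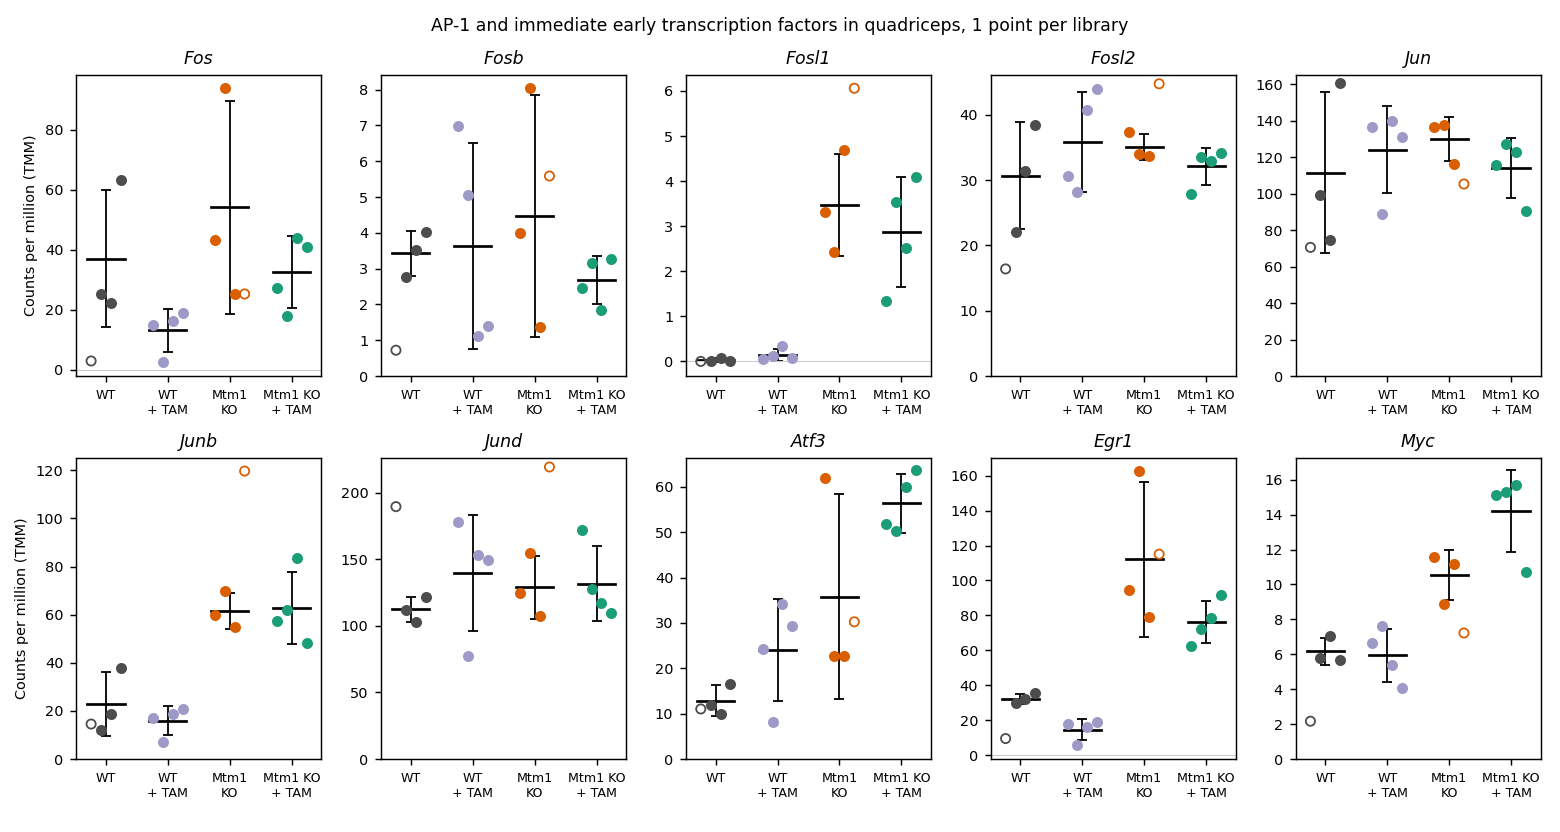
CPM (TMM-scaled) of the 10 members in each library, with the mean (bar) and SD over the 14 libraries and open points for the library labelled WT replicate 1 and for *Mtm1* KO replicate 12. *Junb* lies at 7.08 to 37.7 CPM in the WT and WT + TAM libraries and at 48.3 to 119.7 CPM in the knockout libraries.

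*Fosl1* encodes FRA-1, a Fos protein without the activation domain of *Fos*. In WT replicates 2, 3 and 4 it had 0, 0.0847 and 0 CPM, in WT + TAM replicates 5 to 8 it had 0.0430, 0.121, 0.341 and 0.0842 CPM, and the library labelled WT replicate 1 had 0. *Mtm1* KO replicates 9 to 12 stood at 3.31, 2.42, 4.68 and 6.06 CPM, and *Mtm1* KO + TAM replicates 13 to 16 at 1.33, 3.54, 2.53 and 4.10 CPM. Every knockout library was above every library labelled WT, and the treated and untreated knockout libraries overlapped. In raw counts this was 322 against 2 over *Mtm1* KO and WT, a ratio per total count of 167 (95% interval 46.0 to 1388, counting error only), and 373 against 14 among treated mice, a ratio of 23.9 (14.1 to 44.1). The fitted log2 fold change was 6.84 (SE 0.73, adjusted p = 0.00119) in *Mtm1* KO against WT by edgeR's quasi-likelihood test, Benjamini-Hochberg adjusted; with 2 counts in WT it sets no bound. Among treated mice it was 4.25 (SE 0.55, adjusted p = 7.70e-04, same test). The 2 WT counts were both in replicate 3, and without that library the fitted value was 9.66. Without WT + TAM replicate 7, which holds 8 of its group's 14 counts, the value among treated mice was 5.04. *Fosl1* passed an adjusted p of 0.01 under all 15 alternatives among untreated mice (adjusted p 9.94e-09 to 0.00544) and all 17 among treated mice (5.66e-12 to 0.00302). For treated mice the alternative with all 16 libraries holds the same libraries as the main fit and repeats it.

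The identifier of *Fosl1* is ENSMUSG00000024912, and the gene lies on chromosome 19 from 5447547 to 5455946 on the plus strand (GRCm38, GENCODE vM21). *Ccdc85b*, on the opposite strand, shares 1163 exon bases with it, 57.2% of the exon bases of *Fosl1*. Whether reads were counted by strand is not given in the sources used here, and without strand the reads of the overlap cannot be told apart. *Ccdc85b* had 33.95, 39.97 and 36.6 CPM in WT replicates 2, 3 and 4, 55.8, 42.5, 35.5 and 31.9 in WT + TAM, 29.8, 56.5 and 37.2 in *Mtm1* KO replicates 9, 10 and 11, and 60.1, 42.4, 40.8 and 31.2 in *Mtm1* KO + TAM. It was highest in the library labelled WT replicate 1 (113 CPM) and in *Mtm1* KO replicate 12 (77.6). Its groups overlapped, whereas those of *Fosl1* did not.

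*Fos*, the prototype immediate early gene, encodes c-FOS. It had 25.3, 22.4 and 63.2 CPM in WT replicates 2, 3 and 4, 14.8, 2.53, 16.4 and 18.9 in WT + TAM, 43.3, 93.8 and 25.2 in *Mtm1* KO replicates 9, 10 and 11, and 27.3, 18.1, 43.9 and 40.9 in *Mtm1* KO + TAM. The library labelled WT replicate 1 had 2.99 CPM and *Mtm1* KO replicate 12 had 25.3. Libraries of one group differed several-fold, WT and *Mtm1* KO overlapped, and *Mtm1* KO + TAM overlapped WT + TAM in replicate 14 alone. The log2 fold change was 0.58 (SE 0.50) in *Mtm1* KO against WT and was -0.08 without *Mtm1* KO replicate 10. Among treated mice it was 1.31 (SE 0.46, adjusted p = 0.0756) by edgeR's quasi-likelihood test, Benjamini-Hochberg adjusted, and an exact two-sided permutation test gave p = 0.0571 (n = 4 each), where the smallest possible is 0.0286. *Fos* (ENSMUSG00000021250) lies on chromosome 12 from 85473890 to 85477273, plus strand.

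*Fosb* and *Fosl2* complete the Fos family. *Fosb*, whose truncated product builds up in brain and muscle on repeated stimulation, ranged from 1.11 to 8.06 CPM over the 14 libraries, with the highest value in *Mtm1* KO replicate 10. Its log2 fold changes were 0.41 (SE 0.52) in *Mtm1* KO against WT, -0.33 without *Mtm1* KO replicate 10, and -0.43 (SE 0.50) among treated mice, 0.09 without WT + TAM replicate 5. *Fosl2*, which encodes FRA-2, was steadier at 22.1 to 43.9 CPM, with 0.22 (SE 0.19) in *Mtm1* KO against WT and -0.16 (SE 0.15) among treated mice, the latter turning to 0.13 under scaling by library size alone. *Fosb* (ENSMUSG00000003545) lies on chromosome 7 from 19302696 to 19310051, minus strand, and *Fosl2* (ENSMUSG00000029135) on chromosome 5 from 32135801 to 32157842, plus strand.

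In the Jun family, *Junb* was set apart between genotypes, and *Jun* and *Jund* were not. *Junb* encodes a Jun protein that activates transcription more weakly than c-JUN at many sites and is known in muscle for keeping fiber size. It had 12.04, 18.8 and 37.7 CPM in WT replicates 2, 3 and 4, 17.0, 7.08, 18.8 and 20.7 in WT + TAM, 59.8, 69.9 and 55.0 in *Mtm1* KO replicates 9, 10 and 11, and 57.3, 61.9, 83.7 and 48.3 in *Mtm1* KO + TAM. The library labelled WT replicate 1 had 14.6 CPM and *Mtm1* KO replicate 12 had 119.7 CPM. All knockout libraries were above all WT libraries, with WT replicate 4 the nearest. The mean went from 22.9 ± 13.3 to 61.6 ± 7.63 CPM (SD, n = 3 each) among untreated mice and from 15.9 ± 6.08 to 62.8 ± 15.05 (SD, n = 4 each) among treated mice. *Junb* rose in *Mtm1* KO + TAM against WT + TAM, by 1.98 on the log2 scale (SE 0.29, adjusted p = 0.00135, edgeR's quasi-likelihood test, Benjamini-Hochberg adjusted), and under all 17 alternatives (adjusted p 9.73e-11 to 0.00529). Of these, the fit with all 16 libraries repeats the main fit. Among untreated mice the estimate was 1.45 (SE 0.35, adjusted p = 0.0278, same test), short of the threshold of 0.01. It passed under DESeq2, under the pair of edgeR's exact test and DESeq2, with no filter on low counts, and without WT replicate 4, where the estimate was 2.02 (adjusted p = 0.00426, with 8.92e-05 to 0.0891 over the 15 alternatives). The knockout effects among treated and untreated mice differed by 0.55 (SE 0.49), which did not pass in edgeR's test of the interaction.

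*Jun*, which encodes c-JUN, ranged from 74.8 to 161 CPM over the 14 libraries, and *Jund*, a Jun protein with steady expression in most tissues, from 77.4 to 178 CPM. Log2 fold changes in *Mtm1* KO against WT were 0.25 (SE 0.25) for *Jun* and 0.22 (SE 0.16) for *Jund*. Among treated mice they were -0.12 (SE 0.16) and -0.08 (SE 0.23), and scaling by library size alone turned them to 0.17 and 0.19. None of these values passed edgeR's test, at unadjusted p of 0.343 and 0.190 among untreated mice, or under DESeq2. *Junb* (ENSMUSG00000052837) lies on chromosome 8 from 84974484 to 84978718, minus strand, *Jund* (ENSMUSG00000071076) on chromosome 8 from 70698949 to 70700616, plus strand, and *Jun* (ENSMUSG00000052684) on chromosome 4 from 95049034 to 95052222, minus strand. Genes on the opposite strand overlap each of them: *Prdx2* shares 7.52% of the exon bases of *Junb*, *Gm11175* 52.6% of those of *Jund* and *Junos* 7.28% of those of *Jun*, so part of these counts cannot be told apart without strand.

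*Atf3*, a stress-induced factor that can repress as a homodimer or activate with Jun partners, had 12.01, 9.91 and 16.6 CPM in WT replicates 2, 3 and 4 and 24.2, 8.21, 34.3 and 29.3 in WT + TAM. In *Mtm1* KO replicates 9, 10 and 11 it had 62.0, 22.8 and 22.6 CPM, and in *Mtm1* KO + TAM 51.7, 50.3, 59.9 and 63.7. The library labelled WT replicate 1 had 11.04 CPM and *Mtm1* KO replicate 12 had 30.3. *Mtm1* KO replicate 9 was far above the other untreated knockout libraries, and the treated knockout libraries lay close together and above all WT + TAM libraries. The log2 fold change was 1.51 (SE 0.39, adjusted p = 0.0367) in *Mtm1* KO against WT and 1.24 (SE 0.32, adjusted p = 0.0237) among treated mice, by edgeR's quasi-likelihood test, Benjamini-Hochberg adjusted. Neither passed 0.01, and the former was 0.85 without *Mtm1* KO replicate 9. DESeq2 called *Atf3* in both (adjusted p 3.04e-04 and 8.01e-04, over alternatives that reached 0.111 and 0.0620). Without WT + TAM replicate 6, the lowest of its group, the estimate among treated mice was 0.95 and passed (adjusted p = 0.00264, edgeR's quasi-likelihood test, Benjamini-Hochberg adjusted). The interaction was -0.24 (SE 0.56), not called. *Atf3* (ENSMUSG00000026628) lies on chromosome 1 from 191170296 to 191218039, minus strand.

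*Egr1* encodes a zinc finger factor induced through serum response factor, and it rose in both knockout comparisons. WT replicates 2, 3 and 4 had 29.5, 31.9 and 35.4 CPM, and WT + TAM had 18.04, 5.55, 16.03 and 18.7. *Mtm1* KO replicates 9, 10 and 11 had 94.7, 163 and 79.1 CPM, and *Mtm1* KO + TAM had 62.6, 72.4, 78.6 and 91.7. The library labelled WT replicate 1 had 9.44 CPM and *Mtm1* KO replicate 12 had 115. The lowest knockout library was above the highest WT library by a wide margin, and every WT + TAM library was below every one of WT replicates 2, 3 and 4, while 3 of the 4 were above the library labelled WT replicate 1. The log2 fold change was 1.82 (SE 0.25, adjusted p = 0.00335) among untreated mice and 2.39 (SE 0.31, adjusted p = 7.43e-04) among treated mice, by edgeR's quasi-likelihood test, Benjamini-Hochberg adjusted. The rise among treated mice passed under all 17 alternatives (adjusted p 2.85e-14 to 0.00282), of which the fit with all 16 libraries repeats the main fit. The rise among untreated mice passed under 11 of 15 (7.63e-12 to 0.0149). It was lost with the library labelled WT replicate 1 and *Mtm1* KO replicate 12 added (2.11, adjusted p = 0.0130), without WT replicate 2 (1.76, 0.0134), without WT replicate 3 (1.81, 0.0133) and without WT replicate 4 (1.89, 0.0149), each by edgeR's quasi-likelihood test, Benjamini-Hochberg adjusted. The identifier is ENSMUSG00000038418, on chromosome 18 from 34859823 to 34864984, plus strand.

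*Myc*, which drives ribosome production and cell growth, had 5.76, 7.03 and 5.70 CPM in WT replicates 2, 3 and 4, 6.67, 7.60, 5.41 and 4.08 in WT + TAM, 11.6, 8.91 and 11.2 in *Mtm1* KO replicates 9, 10 and 11, and 15.2, 15.3, 15.7 and 10.7 in *Mtm1* KO + TAM. The library labelled WT replicate 1 had 2.167 CPM and *Mtm1* KO replicate 12 had 7.22. The knockout libraries were above the WT libraries of the same diet, narrowly so for replicate 12, and the treated knockout libraries were the highest except for replicate 16. *Myc* rose in *Mtm1* KO + TAM against WT + TAM by 1.26 on the log2 scale (SE 0.20, adjusted p = 0.00232, edgeR's quasi-likelihood test, Benjamini-Hochberg adjusted). The call was lost without *Mtm1* KO + TAM replicate 15 (1.21, adjusted p = 0.01002 in the same test, with 2.86e-07 to 0.01002 over the 17 alternatives). In *Mtm1* KO against WT the estimate was 0.80 (SE 0.18, adjusted p = 0.0235), which did not pass. It passed in 5 of 15 alternatives (adjusted p 0.00415 to 0.129 over the 15), under DESeq2, the pair of tools, limma with either pseudocount and edgeR with scaling by library size alone. It passed in 0 of 6 edgeR fits with 1 library left out (adjusted p 0.0240 to 0.0772). The knockout effects differed by 0.48 (SE 0.29) in the interaction, not called. *Myc* (ENSMUSG00000022346) lies on chromosome 15 from 61985391 to 61990374, plus strand.

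**Figure D2:**
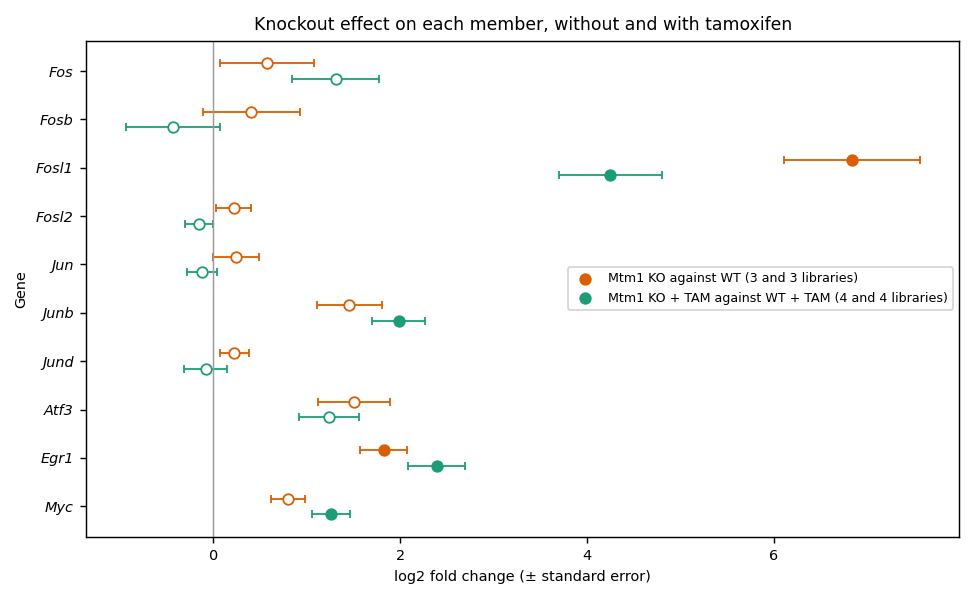
Log2 fold change of each member (points, with SE as bars) in the comparisons of edgeR's quasi-likelihood test over 14 libraries, filled where the adjusted p was at most 0.01. *Egr1* stands at 1.82 in *Mtm1* KO against WT and 2.39 in *Mtm1* KO + TAM against WT + TAM.

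Counted over the family, 2 of 10 members (*Fosl1* and *Egr1*) rose in *Mtm1* KO against WT and 0 fell, where 3.60% of 14740 genes tested passed in either direction and 1.91% passed upwards. At an unadjusted p of at most 0.05, 5 of 10 passed, as did 30.1% of all genes. DESeq2 called 5 (*Fosl1*, *Junb*, *Atf3*, *Egr1* and *Myc*), while it called 11.4% of all genes. With the library labelled WT replicate 1 and *Mtm1* KO replicate 12 added, 1 member passed (*Fosl1*), against 1.44% of all genes. The count was also 1 without WT replicate 2 and without WT replicate 3. In *Mtm1* KO + TAM against WT + TAM, 4 of 10 rose (*Fosl1*, *Junb*, *Egr1* and *Myc*) and 0 fell, where 6.72% of 14563 genes passed in either direction and 3.42% upwards, and 6 had an unadjusted p of at most 0.05, as did 32.3% of all genes. With 1 library left out, 2.88% (without *Mtm1* KO + TAM replicate 15) to 6.20% of all genes passed. The members' median log2 fold change was 0.69 among untreated mice (0.02 over all genes tested) and 1.25 among treated mice (-0.01 over all). All 10 members passed the filter on low counts in both comparisons. They were chosen with the rise of *Fosl1* in these data known, so their share is not that of an independent set. An exact two-sided permutation test gave p = 0.1 for each of *Fosl1*, *Junb*, *Atf3*, *Egr1* and *Myc* among untreated mice (n = 3 each) and p = 0.0286 among treated mice (n = 4 each), the smallest p that these group sizes allow.

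Both comparisons can be averaged, since they share no library. In the knockout effect averaged over diets, fitted to all 4 groups, 5 of 10 members rose, where 19.4% of 15556 genes passed in either direction and 8.99% upwards. The averaged log2 fold changes were 5.53 (SE 0.49) for *Fosl1*, 1.71 (SE 0.25) for *Junb*, 1.36 (SE 0.28) for *Atf3*, 2.09 (SE 0.23) for *Egr1* and 1.02 (SE 0.14) for *Myc*. The adjusted p ran from 1.77e-06 for *Fosl1* to 0.00196 for *Atf3* in edgeR's quasi-likelihood test, Benjamini-Hochberg adjusted. All 5 passed under each of the 21 alternatives, and without WT replicate 3 the value of *Fosl1* was 6.94. The median over the members was 0.97, against 0.01 over all genes. This fit uses the libraries of the pairwise comparisons and is not separate evidence. Between the pairwise comparisons, 365 genes passed in both, 68.7% of the 531 in *Mtm1* KO against WT and 37.3% of the 979 among treated mice. All 365 had the same direction, and *Fosl1* and *Egr1* are among them. The numbers called varied with the libraries used. In *Mtm1* KO against WT 211 genes passed with all 16 libraries and 182 without *Mtm1* KO replicate 11, both below 365. Among treated mice 424 passed without *Mtm1* KO + TAM replicate 15.

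In edgeR, tamoxifen did not move any member past the threshold. In *Mtm1* KO + TAM against *Mtm1* KO, edgeR called 0 of 10 members and 0% of 15062 genes, and DESeq2 0 members and 0.478% of genes. At an unadjusted p of at most 0.05 there were 2 members, beside 7.55% of all genes. These were *Egr1* at -0.57 (SE 0.23) and *Myc* at 0.42 (SE 0.17). No member separated these groups, where 7.69% of genes did in either direction. *Atf3* was 0.64 (SE 0.31) and *Junb* 0.02 (SE 0.18), and *Fosl1* was -0.28 (SE 0.36), with 373 against 322 counts, a ratio of 0.798 per total count (0.685 to 0.929). *Atf3* was at 1.30 without *Mtm1* KO replicate 9, and *Egr1* at -0.20 without *Mtm1* KO replicate 10. Of 7 endothelial markers, 7 were below 0 in this comparison (median -0.29), 2 at an unadjusted p of at most 0.05, with 0 called by edgeR and *Cldn5* called downwards by DESeq2. Of 2 neutrophil markers tested, 2 were also below 0 at that level, with 0 called by edgeR. These were *S100a8* at -2.89 (SE 1.13) and *S100a9* at -5.04 (SE 1.53), and the neutrophil marker sum was highest in *Mtm1* KO replicate 10 (99.8 CPM).

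In WT + TAM against WT, edgeR called 0 of the 9 members it tested, where 0.131% of 14544 genes passed. DESeq2 called 0 members and 1.47% of genes. *Fosl1* fell below the filter, with 14 against 2 counts (ratio 5.59, 1.28 to 50.7). At an unadjusted p of at most 0.05, which 10.7% of all genes had, there were 3 members, *Fos* at -1.50 (SE 0.56), *Egr1* at -1.15 (SE 0.33) and *Atf3* at 0.90 (SE 0.40). *Fos* and *Egr1* were lower in every WT + TAM library than in WT replicates 2, 3 and 4, a separation seen in either direction for 11.5% of genes. With the library labelled WT replicate 1 added, 0 members separated. An exact two-sided permutation test gave p = 0.0286 for *Egr1* (n = 4 and 3), the smallest possible, and 0.0571 for *Fos*. *Fos* was at -0.86 without WT replicate 4. Endothelial markers lay below 0 in the same comparison, 7 of 7, 4 of them at an unadjusted p of at most 0.05, 0 called by edgeR, *Cdh5* called downwards by DESeq2 and a median of -0.45, and their sums were 425, 314 and 467 CPM in WT replicates 2, 3 and 4 and 250.4, 255, 319 and 323 in WT + TAM. Of 8 fibroblast markers 1 lay above 0 (median -0.34), as did 5 of 5 fat cell (0.71) and 6 of 6 Schwann cell markers (0.17). At an unadjusted p of at most 0.05 there were 1, 0 and 1 of them, and edgeR called 0.

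The interaction, the difference of the tamoxifen effects by genotype, called 0 of 10 members and 0% of 15556 genes in edgeR. DESeq2 called 0 members and 0.0771% of genes. Only *Fosl1* had an unadjusted p of at most 0.05 (-2.57, SE 1.17), as did 4.27% of all genes, and this value was -5.38 without WT replicate 3 and -1.78 without WT + TAM replicate 7. The tamoxifen effect averaged over genotypes called 0 members in edgeR, where 0.591% of genes passed, with 3 members at an unadjusted p of at most 0.05, as were 14.1% of all genes. These were *Egr1* (-0.85, SE 0.22, adjusted p = 0.0631 by edgeR's quasi-likelihood test, Benjamini-Hochberg adjusted), *Fos* (-1.11, SE 0.38) and *Atf3* (0.78, SE 0.28). Of the members, DESeq2 called *Egr1* alone (-0.84, adjusted p = 0.00601, with up to 0.193 over the 21 alternatives). Here too 7 of 7 endothelial markers were below 0 (median -0.32), 4 at an unadjusted p of at most 0.05, with 0 called by edgeR and *Cdh5* and *Cldn5* called downwards by DESeq2. The neutrophil markers *S100a8* (-1.72, SE 1.05) and *S100a9* (-2.79, SE 1.18) were below 0 as well, and edgeR did not call them.

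Levels of different genes were compared per gene length, in RPKM. These values carry no TMM scaling, so they rank genes within a group and do not measure differences between groups. In limma on log2 RPKM with 0.1 added, the middle gene lay at 0.32 in *Mtm1* KO against WT and 0.25 among treated mice. With TMM it lay at 0.02 and -0.01. In TMM-scaled CPM, *Jund* averaged 112 in WT and 129 in *Mtm1* KO, and *Jun* 112 and 130. *Jund* and *Jun* led in all 4 groups, at 35.8 ± 4.50 and 32.3 ± 13.6 RPKM in WT (SD, n = 3) and 51.8 ± 10.7 and 47.2 ± 5.64 in *Mtm1* KO (SD, n = 3). In WT they were followed by *Fos* at 14.5 ± 9.18, *Junb* at 11.4 ± 6.79, *Egr1* at 6.57 ± 0.672, *Atf3* at 5.94 ± 1.74, *Fosl2* at 4.77 ± 1.26, *Myc* at 2.03 ± 0.134, *Fosb* at 0.835 ± 0.148 and *Fosl1* at 0.0140 ± 0.0242 RPKM. Neighbors in this order overlapped between libraries down to *Fosl2*, while *Fosl2* and *Myc*, *Myc* and *Fosb*, and *Fosb* and *Fosl1* did not. In *Mtm1* KO the order was *Jund*, *Jun*, *Junb* (38.6 ± 5.69), *Egr1* (29.0 ± 12.05), *Fos* (26.8 ± 18.004), *Atf3* (20.9 ± 13.5), *Fosl2* (6.90 ± 0.521), *Myc* (4.38 ± 0.559), *Fosl1* (2.33 ± 0.697) and *Fosb* (1.39 ± 1.07). There *Fosl1* had moved above *Fosb* on average, within their overlap, and the steps from *Atf3* to *Fosl2*, *Fosl2* to *Myc* and *Myc* to *Fosl1* were without overlap. With the library labelled WT replicate 1, WT *Egr1* came to 5.34 RPKM, below *Atf3* at 5.53, and the steps around *Myc* overlapped. With replicate 12, *Junb* in *Mtm1* KO came to 46.2 RPKM, above *Jun* at 44.1, and *Myc* overlapped *Fosl1*.

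In WT + TAM the order was *Jund* at 44.1 ± 13.3 RPKM, *Jun* at 35.5 ± 6.48, *Atf3* at 10.995 ± 5.17, *Junb* at 7.87 ± 2.98, *Fosl2* at 5.59 ± 1.20, *Fos* at 5.08 ± 2.81, *Egr1* at 2.95 ± 1.23, *Myc* at 1.96 ± 0.513, *Fosb* at 0.881 ± 0.688 and *Fosl1* at 0.0790 ± 0.0709 (SD, n = 4). The libraries did not overlap between *Jun* and *Atf3* or between *Fosb* and *Fosl1*. In *Mtm1* KO + TAM the order was *Jund* at 50.4 ± 8.63, *Jun* at 39.8 ± 7.20, *Junb* at 38.2 ± 11.5, *Atf3* at 31.6 ± 4.44, *Egr1* at 18.9 ± 3.38, *Fos* at 15.4 ± 6.18, *Fosl2* at 6.10 ± 0.805, *Myc* at 5.71 ± 1.12, *Fosl1* at 1.88 ± 0.794 and *Fosb* at 0.791 ± 0.184 RPKM (SD, n = 4). Here *Atf3* and *Egr1*, *Fos* and *Fosl2*, and *Myc* and *Fosl1* did not overlap.

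Within a family, the makeup of the RNA can be read as each gene's share of the summed RPKM, a measure added after the values were seen. *Junb* made up 8.53 to 18.1% of the Jun family in WT, 6.56 to 10.8% in WT + TAM, 27.4 to 28.8% in *Mtm1* KO and 24.4 to 36.5% in *Mtm1* KO + TAM, so that the shares of the genotypes were apart. *Jun* averaged 39.6 ± 5.47% in WT and 34.4 ± 2.166% in *Mtm1* KO, and *Jund* 46.6 ± 7.98% and 37.4 ± 2.07% (SD, n = 3). In the Fos family, *Fosl1* went from 0.103 ± 0.178% of the RNA in WT to 7.95 ± 5.62% in *Mtm1* KO (SD, n = 3), and from 0.714 ± 0.563% to 7.95 ± 3.74% among treated mice (SD, n = 4). The *Mtm1* KO libraries had 6.97, 2.88 and 13.999%, so that replicate 11 raised the mean, and the WT value came from replicate 3 alone. *Fos* was the main member in WT (69.4 ± 8.98%), *Mtm1* KO (67.3 ± 13.1%) and *Mtm1* KO + TAM (62.2 ± 10.4%), while in WT + TAM *Fosl2* averaged 50.02 ± 11.3% and *Fos* 40.1 ± 17.0%. That order rests on WT + TAM replicate 6 (65.8% and 14.7%), since *Fos* was above *Fosl2* in replicates 5 and 8 and level with it in replicate 7. With the library labelled WT replicate 1, *Fos* and *Fosl2* averaged 59.5% and 35.8% in WT. *Fosb* had group means of 3.35 to 9.18%, the highest in WT + TAM, where replicates 5 to 8 had 13.9, 18.5, 2.05 and 2.32%.

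**Figure D3:**
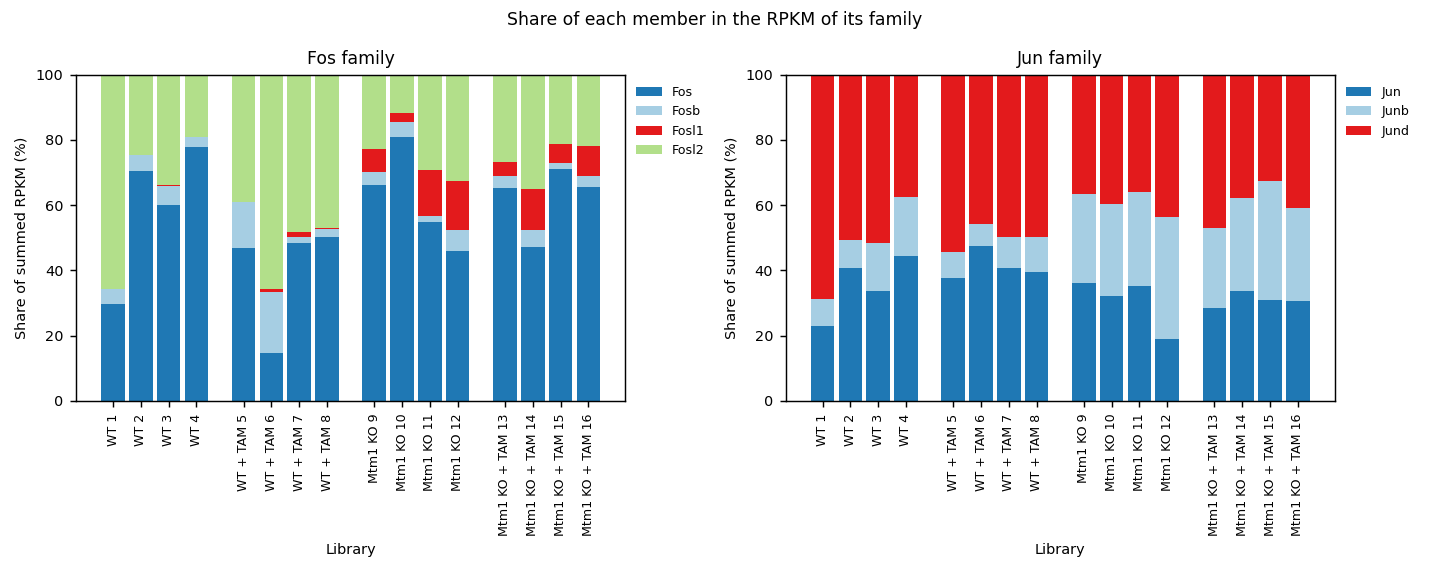
Share of each member in the summed RPKM of its family, in percent, stacked for each of the 16 libraries, including the library labelled WT replicate 1 and *Mtm1* KO replicate 12. *Junb* averages 13.8% of the Jun family in WT and 28.1% in *Mtm1* KO over the 14 libraries.

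Members also differed in how much they varied among mice of one group. The pooled SD within groups of log2 CPM was 0.98 for *Fos* and 0.93 for *Fosb*, more than in 96.7% and 95.8% of 15556 genes, where the median gene had 0.27. *Fosl1* (0.68), *Atf3* (0.66), *Junb* (0.57) and *Egr1* (0.53) followed, and *Jund* (0.36), *Jun* (0.33), *Myc* (0.28) and *Fosl2* (0.26) were near the median. Over the 14 libraries, deviations from the group mean went together for *Fos* and *Egr1* (Pearson r = 0.909), *Fos* and *Junb* (0.798), *Jun* and *Junb* (0.790), *Fosl2* and *Junb* (0.783), *Jund* and *Egr1* (0.740) and *Fos* and *Jund* (0.714). *Myc* ran the opposite way to *Egr1* (-0.675) and *Fos* (-0.674). *Mtm1* KO replicate 10 had the highest *Fos*, *Fosb*, *Jun*, *Junb*, *Jund* and *Egr1* CPM of the 3 libraries of its group. WT + TAM replicate 6 had the lowest *Fosl2*, *Fos*, *Jun*, *Junb*, *Jund*, *Atf3* and *Egr1* of its own, the highest *Myc*, and the lowest sum of macrophage markers (114 CPM, with 249 to 264 in the others). These correlations share libraries and scaling and are given as description.

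Among 12840 genes with a mean of at least 1 CPM, the profile of *Fosl1* over the 14 libraries was most like those of *Rin1* (r = 0.971), *Eda2r* (0.968), *Dusp5* (0.963), *Slc25a24* (0.961) and *Cilp* (0.959). *Fos* was most like *Fcrls* (0.923), *Tmsb4x* (0.905), *Dapp1* (0.905), *Il2rg* (0.902) and *Aldh18a1* (0.900). After subtraction of each group's mean, *Apold1* (0.955), *Nme1* (0.946), *Aif1* (0.927), *Tmem173* (0.917) and *Egr1* (0.909) came nearest to *Fos*. *Dusp5*, a nuclear phosphatase of ERK, is itself an immediate early gene.

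Fos, Jun and Atf3 genes are known to be controlled partly by AP-1 and CREB factors at their own promoters, so upstream sequences from RefSeq (GRCm38.p6) were searched for such letters after the values were seen. An entry was found for 7 of the 10 members (*Fosl2*, *Fos*, *Fosb*, *Jun*, *Junb*, *Jund* and *Atf3*), and not used for *Fosl1*, *Egr1* and *Myc*. In the 250 bases before the start, searched on both strands, the AP-1 site TGANTCA was in 0 of these 7 and in 6.75% of 32851 promoters, and the cAMP response element TGACGTCA in 0 of 7 and in 1.55%. The same element with any middle base, TGACNTCA, which includes the former, was in *Jun* and in 7.49% of promoters. Its core TGACG was in *Atf3*, *Fos*, *Fosb* and *Junb* and in 17.8% of promoters, TATAAA in *Fos* and in 12.4%, and the CArG box of serum response factor in 0 of 7 and in 1.47%. The windows of *Atf3* and *Junb*, which separated the genotypes, are shown beside those of *Fos* and *Jun*, which did not, with TGACG or its reverse complement CGTCA in capitals, and TGACNTCA in *Jun*. They lie at chr1:191183334-191183583 (*Atf3*, minus strand, within the annotated gene), chr8:84978749-84978998 (*Junb*, minus strand), chr12:85473640-85473889 (*Fos*, plus strand) and chr4:95052223-95052472 (*Jun*, minus strand, inside *Junos*), and hold 65.2%, 66.4%, 58.4% and 61.2% G and C. A match describes letters, not a bound site, and a site farther than 250 bases before the start could not be found.
Atf3: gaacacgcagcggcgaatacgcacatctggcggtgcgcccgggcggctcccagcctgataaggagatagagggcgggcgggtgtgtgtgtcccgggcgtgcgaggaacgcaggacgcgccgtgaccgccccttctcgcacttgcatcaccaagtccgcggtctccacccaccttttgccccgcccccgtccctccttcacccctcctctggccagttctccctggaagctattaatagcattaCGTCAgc
Junb: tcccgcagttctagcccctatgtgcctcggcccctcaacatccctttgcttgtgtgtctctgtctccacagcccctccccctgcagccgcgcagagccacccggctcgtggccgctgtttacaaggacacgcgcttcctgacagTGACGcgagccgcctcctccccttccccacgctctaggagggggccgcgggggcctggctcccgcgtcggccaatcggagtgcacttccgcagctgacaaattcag
Fos: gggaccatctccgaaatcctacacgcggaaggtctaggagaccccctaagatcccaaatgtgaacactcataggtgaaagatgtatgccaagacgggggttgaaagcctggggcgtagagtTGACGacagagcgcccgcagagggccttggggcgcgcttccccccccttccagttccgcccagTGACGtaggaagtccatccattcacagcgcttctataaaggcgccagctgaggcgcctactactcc
Jun: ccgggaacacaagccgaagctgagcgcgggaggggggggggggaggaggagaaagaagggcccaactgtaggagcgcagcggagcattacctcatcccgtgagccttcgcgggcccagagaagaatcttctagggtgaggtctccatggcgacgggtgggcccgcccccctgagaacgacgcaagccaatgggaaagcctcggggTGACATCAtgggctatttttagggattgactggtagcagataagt

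Other leucine zipper genes that can pair with Fos and Jun proteins did not pass in the pairwise knockout comparisons. Of 28 tested (among them MAF, BATF, ATF, CREB, C/EBP, NFE2L and BACH factors), edgeR called 0 in *Mtm1* KO against WT, where 3.60% of all genes passed. There 8 had an unadjusted p of at most 0.05 (30.1% of all genes had), and DESeq2 called *Maff* upwards and *Maf* downwards. Among treated mice edgeR called 0 of 28, where 6.72% of all genes passed. At an unadjusted p of at most 0.05 there were 8 (32.3% of all genes), and DESeq2 called *Ddit3* upwards and *Atf7* and *Cebpb* downwards. Of all genes DESeq2 called 11.4% in *Mtm1* KO against WT and 13.7% among treated mice. The names from DESeq2 were picked after their values were seen. The medians were 0.08 and -0.12, beside 0.02 and -0.01 over all genes. In the whole list the log2 fold changes ran from -0.56 to 1.27 and from -0.90 to 0.89.

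Other immediate early genes passed in part, mostly upwards. Of 49 tested, 5 rose and 0 fell in *Mtm1* KO against WT, where 3.60% of all genes passed in either direction and 1.91% upwards. An unadjusted p of at most 0.05 was found for 31, as for 30.1% of all genes. The 5 were the matrix protein gene *Ctgf* (2.202, SE 0.13), the ERK phosphatase genes *Dusp2* (3.69, SE 0.63) and *Dusp5* (2.34, SE 0.23), the zinc finger gene *Egr2* (2.54, SE 0.30) and *Phlda1* (1.28, SE 0.21). *Egr2* had 2.14, 1.52 and 2.26 CPM in WT replicates 2, 3 and 4 and 10.2, 15.8 and 8.06 in *Mtm1* KO replicates 9, 10 and 11, without overlap. The adjusted p ran from 1.65e-04 for *Ctgf* to 0.00767 for *Dusp2* in edgeR's quasi-likelihood test, Benjamini-Hochberg adjusted. *Ctgf*, *Dusp5* and *Egr2* passed whichever library was left out and also with the library labelled WT replicate 1 and *Mtm1* KO replicate 12. *Dusp2* passed in none of these fits (4.33 without WT replicate 3 and 3.04 without *Mtm1* KO replicate 11), and *Phlda1* passed without *Mtm1* KO replicate 9 alone. The list's median was 0.54.

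Among treated mice, 11 of 49 immediate early genes rose and 4 fell, where 3.42% of all genes passed upwards and 3.30% downwards. An unadjusted p of at most 0.05 was found for 24, as for 32.3% of all genes. *Ctgf* (1.52), *Dusp2* (2.42), *Dusp5* (2.26) and *Phlda1* (1.51) were again among those that rose, with *Arid5a* (1.69), *Btg1* (0.84), *Cyr61* (0.99), *Ier3* (1.46), *Plk2* (0.79), *Trib1* (0.89) and *Socs3*, a brake on cytokine receptors (1.57). *Socs3* had 8.18, 5.87, 8.48 and 6.65 CPM in WT + TAM and 19.7, 16.3, 31.3 and 19.5 in *Mtm1* KO + TAM, without overlap. The 4 that fell were the orphan receptor gene *Nr4a1* (-0.76), the clock gene *Per1* (-0.72), the kinase gene *Sgk1* (-0.94) and *Srf* (-0.77). Of the 11, 8 passed whichever library was left out (*Arid5a*, *Ctgf*, *Dusp2*, *Dusp5*, *Phlda1*, *Plk2*, *Socs3* and *Trib1*). Of the 4, none did, and 0 passed without *Mtm1* KO + TAM replicate 13 or without replicate 15. Under scaling by library size alone 18 rose and 0 fell, while the median of all genes moved from -0.01 to 0.27. Of all genes 12.9% passed under that scaling in either direction. The list's median was 0.35. In the interaction edgeR called 0 of 49 (9 at an unadjusted p of at most 0.05) and DESeq2 0, so genes called in 1 comparison are not shown to differ between them.

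Of kinases and serum response factor partners upstream of these genes, those that passed in the pairwise knockout comparisons with TMM scaling fell. In *Mtm1* KO against WT, 0 of 35 rose and 5 fell: *Map2k6*, an activator of p38 kinase (-1.49, SE 0.15), *Mapk9*, which encodes JNK2 (-0.78, SE 0.13), *Rps6ka2* (-0.94, SE 0.14), the JNK phosphatase gene *Dusp8* (-0.82, SE 0.13) and the actin-sensing coactivator gene *Mkl1* (-1.06, SE 0.17). Of all genes 3.60% passed there in either direction and 1.69% downwards. *Map2k6* had 35.8, 41.2 and 34.2 CPM in WT replicates 2, 3 and 4 and 15.2, 11.4 and 12.3 in *Mtm1* KO replicates 9, 10 and 11. Among treated mice 0 of 34 rose and 4 fell, namely *Map2k6* (-1.10, SE 0.22), *Mapk9* (-0.68, SE 0.12), *Rps6ka2* (-0.90, SE 0.14) and *Srf* (-0.77, SE 0.15). Here 6.72% of all genes passed in either direction and 3.30% downwards. *Map2k6* alone passed whichever library was left out of the former comparison, where the other 4 were lost without WT replicate 2, 3 or 4 or *Mtm1* KO replicate 10 or 11. *Rps6ka2* alone did so in the latter, with 1 call left without *Mtm1* KO + TAM replicate 14 or 15. The medians were -0.29 and -0.10, and 20 and 16 genes had an unadjusted p of at most 0.05 (30.1% and 32.3% of all genes). Scaling by library size alone gave medians of 0.03 and 0.18, with 0 rising and 1 falling (*Map2k6*) in the former and 4 rising and 2 falling in the latter. Of all genes 7.89% and 12.9% passed under that scaling in either direction. The interaction called 0 of 35 in edgeR (3 at an unadjusted p of at most 0.05) and 0 in DESeq2.

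Genes known as AP-1 targets went upward where they passed. The list was written with earlier results of these data known, among them the rise of *Sprr1a* and the study's supplementary gene sheets. Its shares are therefore description, not a test against all genes. In *Mtm1* KO against WT 7 of 26 rose, where 1.91% of all genes passed upwards and 3.60% in either direction. At an unadjusted p of at most 0.05 there were 17 (30.1% of all genes), and the median was 0.96. Among those that rose were the metalloprotease inhibitor gene *Timp1* (3.94, SE 0.30), the galectin gene *Lgals3* (2.99, SE 0.37), *Tgfb1* (1.22, SE 0.18), the filamin gene *Flnc* (0.81, SE 0.14) and *Sprr1a*, a cornified envelope protein that injured nerve and muscle also make. *Sprr1a* had 49, 96 and 150 counts in *Mtm1* KO replicates 9, 10 and 11 and 0 in all WT libraries. The ratio per total count was 102 if WT is set to 3 counts as a floor, and its 95% lower limit against 0 counts was 82.6 (counting error only). *Timp1* had 3.44, 1.74 and 2.03 CPM in WT replicates 2, 3 and 4 and 26.3, 46.1 and 37.0 in *Mtm1* KO replicates 9, 10 and 11, but 25.3 in the library labelled WT replicate 1. With that library and *Mtm1* KO replicate 12 added, 3 passed (*Lgals3*, *Sprr1a* and *Mmp12*, the last named after its value was seen). *Lgals3* and *Timp1* passed whichever of the 14 libraries was left out, and the fewest calls, 3, came without *Mtm1* KO replicate 10.

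Among treated mice 13 of 25 AP-1 targets rose, where 3.42% of all genes passed upwards and 6.72% in either direction. At an unadjusted p of at most 0.05 there were 19 (32.3% of all genes), and the median was 1.10. *Timp1* (3.21, SE 0.48), *Lgals3* (1.97, SE 0.34) and *Tgfb1* (1.19, SE 0.16) were among those that rose, as were the chemokine gene *Ccl2* (3.25, SE 0.65), osteopontin (*Spp1*, 2.73, SE 0.28), *Cd44* (1.32), *Hbegf* (1.18), *Ezr* (1.10), *Itga5* (0.89) and vimentin (*Vim*, 0.59). *Spp1* had 1.89, 1.17, 2.174 and 1.43 CPM in WT + TAM and 6.13, 12.7, 12.97 and 12.4 in *Mtm1* KO + TAM. *Sprr1a* had 244 against 2 counts, a ratio of 109 per total count (95% interval 29.9 to 908), and both counts of WT + TAM were in replicate 7. Of the genes named, *Cd44*, *Hbegf*, *Spp1*, *Sprr1a*, *Tgfb1* and *Timp1* passed whichever library was left out, and *Ccl2*, *Ezr*, *Itga5*, *Lgals3* and *Vim* did not. The fewest calls were 7, without *Mtm1* KO + TAM replicate 15, where *Ccl2* was at 2.63. The interaction called 0 of 26 in edgeR (3 at an unadjusted p of at most 0.05) and 0 in DESeq2.

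Few partners and targets of *Myc* passed in the pairwise knockout comparisons. In *Mtm1* KO against WT edgeR called 0 of 11 genes of the MYC network (5 at an unadjusted p of at most 0.05) and 0 of 20 MYC targets (12 at that level, which 30.1% of all genes reached), with medians of 0.07 and 0.22, and DESeq2 called *Mlxip*, *Ldha* and *Shmt1* downwards. EdgeR called 3.60% of all genes there and DESeq2 11.4%. Among treated mice edgeR called 6.72% of all genes in either direction and 3.30% downwards. Of 11 network genes 0 rose and 2 fell, *Mlxip* (-1.13, SE 0.18) and the MYC antagonist *Mxi1* (-0.56, SE 0.10), with 3 at an unadjusted p of at most 0.05. Both were lost without *Mtm1* KO + TAM replicate 15, and *Mxi1* also without WT + TAM replicate 7 or *Mtm1* KO + TAM replicate 14 or 16. Of 20 targets 0 rose and 1 fell, *Odc1* (-0.77, SE 0.13), which encodes the enzyme that starts polyamine synthesis, with 10 at that level, where 32.3% of all genes were. That call was lost without WT + TAM replicate 7 or 8 or *Mtm1* KO + TAM replicate 13 or 14. *Odc1* had 126, 155 and 116 CPM in WT replicates 2, 3 and 4, 321, 309, 389 and 374 in WT + TAM, 147, 165 and 204 in *Mtm1* KO replicates 9, 10 and 11 and 197, 170, 232 and 217 in *Mtm1* KO + TAM. It was highest in the treated WT libraries and was the 1 gene of these lists called in WT + TAM against WT (1.396, adjusted p = 0.00295 by edgeR's quasi-likelihood test, Benjamini-Hochberg adjusted), a call lost without WT replicate 2 or 4 or WT + TAM replicate 5, 7 or 8. Scaling by library size alone turned the targets to 5 rising and 0 falling among untreated mice and 6 rising and 0 falling among treated mice. Of all genes 7.89% and 12.9% passed under that scaling in either direction. In the interaction edgeR called 0 genes of both lists (1 and 2 at an unadjusted p of at most 0.05), and DESeq2 called *Odc1* alone.

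**Figure D4:**
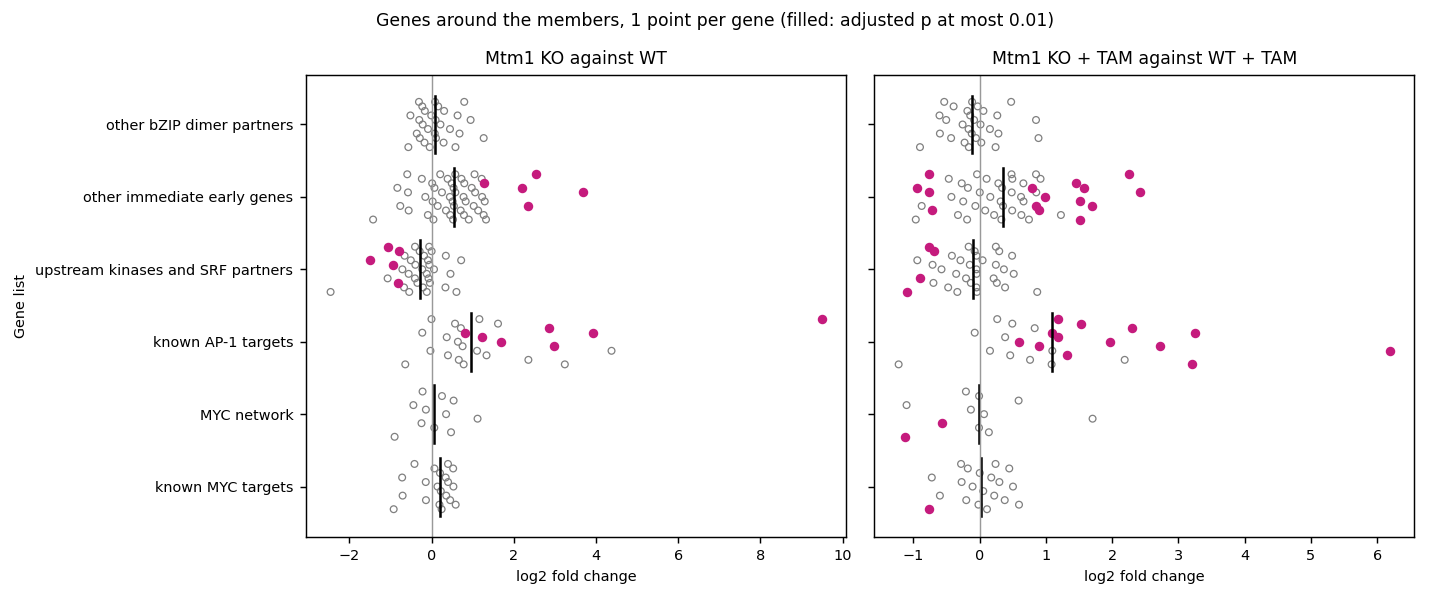
Log2 fold change of each gene of the 6 lists around the members in both knockout comparisons, 1 point per gene, filled where the adjusted p was at most 0.01, with a line at the list's median. The medians of the AP-1 targets are 0.96 and 1.10.

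In the knockout effect averaged over diets, 1 rose and 2 fell of 29 leucine zipper partners, 20 rose and 3 fell of 49 immediate early genes, 1 rose and 11 fell of 35 kinases, 17 rose and 0 fell of 26 AP-1 targets, 1 rose and 2 fell of 11 MYC network genes and 4 rose and 2 fell of 20 MYC targets, beside 19.4% of all genes called in either direction and 8.99% upwards. In the pairwise tamoxifen comparisons, *Odc1* in WT was the only gene of these lists that edgeR called. In *Mtm1* KO + TAM against *Mtm1* KO it called 0 genes in each of the 6 lists. An unadjusted p of at most 0.05 was found for 4 of 29 leucine zipper partners, 14 of 49 immediate early genes, 2 of 34 kinases, 5 of 26 AP-1 targets, 0 of 11 MYC network genes and 0 of 20 MYC targets, beside 7.55% of all genes. DESeq2 called *Gadd45b* and *Socs3* upwards and *Rhob* downwards there. In WT + TAM against WT, apart from *Odc1*, edgeR called 0, with 8 of 28, 13 of 48, 8 of 35, 6 of 24, 4 of 11 and 2 of 20 genes at that level in the same order, beside 10.7% of all genes, and DESeq2 also called *Cebpb*, *Ctgf*, *Nfkbia* and *Per1* upwards and *Arc*, *Dusp10* and *Hbegf* downwards. Of all genes DESeq2 called 0.478% in *Mtm1* KO + TAM against *Mtm1* KO and 1.47% in WT + TAM against WT. The genes named from DESeq2 were picked after their values were seen.

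Other cell types in the muscle were read from marker lists. Macrophage markers (10 of 11 in the table, led by *Lyz2*, none without counts) summed to 253, 225 and 216 CPM in WT replicates 2, 3 and 4, 264, 114, 249 and 255 in WT + TAM, 273, 393 and 324 in *Mtm1* KO replicates 9, 10 and 11 and 324, 276, 478 and 286 in *Mtm1* KO + TAM. The knockout sums were above the WT sums, by little for some libraries. EdgeR called 0 of 10 in each knockout comparison, with 8 and 6 at an unadjusted p of at most 0.05 and medians of 0.69 and 0.63. DESeq2 called *C1qb*, *Cd68* and *Lyz2* among untreated mice and *Ptprc* among treated mice, beside 11.4% and 13.7% of all genes. In the averaged knockout effect, where 5 members rose, edgeR called 3 of the 10, *Cd68* (1.503, SE 0.32), *Ptprc* (0.88, SE 0.20) and *C1qb* (0.78, SE 0.21). *Cd68* passed whichever library was left out, and *Cd68* alone without WT replicate 2, *Mtm1* KO replicate 10 or *Mtm1* KO replicate 11. Neutrophil markers (7 in the table, led by *S100a9*) summed to 99.8 CPM in *Mtm1* KO replicate 10, the library with the highest *Fos*, *Fosb*, *Jun*, *Junb*, *Jund* and *Egr1* of its group, and to 0.126 to 1.99 CPM in the other 13 libraries. The averaged effect called *S100a8*, 1 of 2 neutrophil markers tested, with 571 counts in replicate 10 and 0 to 62 in the others, and lost it without that library, without WT replicate 3 or 4, and under DESeq2. Among treated mice *S100a8*, the only neutrophil marker tested, was at 3.01 (SE 0.73), called by DESeq2 and not by edgeR, and the sums were 1.12, 0.603, 0.128 and 0.126 CPM in WT + TAM and 1.47, 0.781, 1.99 and 1.61 in *Mtm1* KO + TAM. Without replicate 10 the log2 fold changes in *Mtm1* KO against WT were -0.08 for *Fos*, -0.33 for *Fosb* and 1.46 for *Egr1*, of which *Egr1* passed. Keratinocyte markers (6 in the table, led by *Trp63*) summed to 8.68 to 14.99 CPM in WT, 7.44 to 13.98 in WT + TAM, 18.7 to 35.0 in *Mtm1* KO and 19.3 to 38.6 in *Mtm1* KO + TAM, without overlap between genotypes. *Trp63*, which encodes a factor of the p53 family, rose by 1.86 (SE 0.31) in *Mtm1* KO + TAM against WT + TAM and was at 1.53 (SE 0.33) in *Mtm1* KO against WT, not called. *Krt10*, the only other marker of the list above the filter, was at -0.35 among untreated and -0.06 among treated mice. What part macrophages, neutrophils or skin cells have in the members' values was not tested.

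Muscle markers moved in both directions. *Des* rose by 0.98 (SE 0.17) in *Mtm1* KO against WT, as 1 of 11 muscle markers, a call lost without WT replicate 2, 3 or 4 or *Mtm1* KO replicate 10 or 11, with a median of -0.66. Of the 11, 8 had an unadjusted p of at most 0.05, and apart from *Des* these lay below 0; DESeq2 called *Des* upwards and 7 downwards. Among treated mice *Des* rose by 0.90 (SE 0.16) and *Myh4* (-1.24, SE 0.16) and *Ckm* (-0.87, SE 0.18) fell, with a median of -0.58, 11 of 11 at an unadjusted p of at most 0.05, and 3 upwards and 6 downwards in DESeq2. *Myh4* passed whichever library was left out, *Ckm* was lost without any of 7 libraries and *Des* without any of 6. Of 5 satellite cell markers (led by *Cdh15*), *Calcr* fell in *Mtm1* KO against WT, from 32, 42 and 31 counts in WT replicates 2, 3 and 4 to 3, 0 and 2 in *Mtm1* KO replicates 9, 10 and 11. That call was lost without any 1 of these 6 libraries, and among treated mice edgeR called 0 of 5 (3 at an unadjusted p of at most 0.05) and DESeq2 *Calcr* and *Pax7* downwards. For 8 fibroblast, 7 endothelial, 5 fat cell, 5 red blood cell and 6 Schwann cell markers, led by *Col1a2*, *Pecam1*, *Fabp4*, *Hbb-bs* and *Pmp22*, edgeR called 0 in both knockout comparisons. At an unadjusted p of 0.05 there were 4, 2, 0, 0 and 1 of them among untreated mice and 3, 1, 0, 0 and 1 among treated mice, and DESeq2 called *Lum* among treated mice alone. Their medians were 0.17, -0.25, 0.55, 0.15 and 0.10 among untreated mice and 0.32, -0.29, -0.68, -0.26 and 0.20 among treated mice. In the averaged knockout effect edgeR called 1 upwards and 7 downwards of 11 muscle markers, 2 upwards of 8 fibroblast, 1 downwards of 7 endothelial, 2 downwards of 5 satellite cell, 1 upwards of 6 Schwann cell and 1 upwards of 2 keratinocyte markers, and 0 of 5 fat cell and 0 of 5 red blood cell markers, 0 of which had an unadjusted p of at most 0.05 or passed in DESeq2. Of all genes 19.4% were called in this fit, 3.60% in *Mtm1* KO against WT and 6.72% in *Mtm1* KO + TAM against WT + TAM. DESeq2 called 11.4% of all genes among untreated mice and 13.7% among treated mice.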

How the data were processed

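Whole quadriceps RNA of 16 mice was measured as raw counts and as RPKM, in 32 columns over 41388 genes. The raw counts were deposited by the authors, made per their notes with STAR 2.5.0c after base calling with bcl2fastq 2.17, and counted on genes with HTSeq per the methods. The RPKM values were also deposited by the authors, whose notes name Cufflinks 2.2.1, and were used to compare levels between genes. Annotation, counting mode, strand setting and gene lengths could not be found in any source at hand. RPKM recomputed from the counts, up to gene length, differed by at most 1.14e-04 (relative) in 4037 genes checked, and 0 of 120 pairs of libraries were identical. Libraries held 25116179 to 29847222 counts, so a gene at 1 CPM has about 25 to 30 counts. The 10 most abundant genes held 15.0 to 27.6% of the counts of the 14 libraries, with lower shares in the knockout libraries.

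Tests used R 4.3.3 with edgeR 4.0.16 (TMM, filterByExpr with minimum count 10 and minimum total 15, quasi-likelihood test, Benjamini-Hochberg adjusted over all genes tested, adjusted p at most 0.01) and were checked on simulated data. Pairwise comparisons used the 2 groups compared, and the interaction and averaged effects used 1 fit of 4 groups. CPM, from edgeR's cpm function, were TMM-scaled over 16 libraries. Permutation tests were exact, two-sided and on log2 CPM with 0.01 added. Ratios of counts have intervals that cover counting error only, not differences between mice. The alternatives were DESeq2 1.42.0, calls shared by edgeR's exact test and DESeq2, an adjusted p of 0.05, RLE or library size in place of TMM, no filter, 1 fit of 4 groups, all 16 libraries, limma 3.58.1 on log2 RPKM with 0.1 or 1 added, and leaving out each library in turn. In *Mtm1* KO + TAM against WT + TAM the alternative with all 16 libraries repeats the main fit. Scaling by library size alone moved the median of all genes' log2 fold changes from 0.02 to 0.33 in *Mtm1* KO against WT and from -0.01 to 0.27 in *Mtm1* KO + TAM against WT + TAM.

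Members and gene lists were chosen with earlier results of these data known. Among these were *Fosl1* and *Sprr1a* in *Mtm1* KO against WT and the study's supplementary gene sheets. Genes were named by a rule set before the files were read: all members, list genes called in either knockout comparison, and the 5 genes most like *Fosl1* and *Fos*. Family shares, their alternative with 16 libraries, and the promoter search were chosen after seeing the data. The macrophage marker *Adgre1* is not in the count table.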

Additional observations from a re-analysis of the deposited data

Results flagged for a closer look

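Each library was compared with the others of its group, in 84 groups of 4 libraries, and 6 held a value far from the rest. Chance gives about 1 in 20 groups, so flags of this kind also arise by chance. *Fosl1* was 0.0847 CPM in WT replicate 3, from 2 counts, and 0 in the other WT libraries, where any count at all gives a flag. *Myc* was 10.7 CPM in *Mtm1* KO + TAM replicate 16, with 15.2 to 15.7 in the others. *Mtm1* was 3.82 CPM in the library labelled WT replicate 1, with 13.6 to 14.4 in the others. The macrophage marker sum was 114 CPM in WT + TAM replicate 6 (249 to 264 in the others), and the red blood cell marker sum of the same library was 66.7 CPM (153 to 158). The neutrophil marker sum was 99.8 CPM in *Mtm1* KO replicate 10 (0.318 to 0.980 in the others).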

How the results depend on the processing

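The number of members called in *Mtm1* KO against WT, 2, was 5 at an adjusted p of 0.05, 5 in DESeq2, 5 for edgeR's exact test together with DESeq2, 4 without a filter and 1 with 16 libraries, where 12.8%, 11.4%, 9.30%, 4.83% and 1.44% of all genes passed against 3.60%. It was 1 to 2 when 1 library was left out (1.21 to 2.40% of all genes). DESeq2 called 1 member (*Egr1*) for the averaged tamoxifen effect, and with 16 libraries 0 members were lower without overlap in WT + TAM. Signs turned for uncalled values, and the cause was not tested. Among treated mice the median of all genes was -0.01 in the main fit. It was 0.27 by library size and 0.25 and 0.16 in limma with 0.1 and 1 added. Leaving out 1 library gave -0.0781 to 1.21 for *Fos* and -0.33 to 0.83 for *Fosb* in *Mtm1* KO against WT. Among treated mice, library size and limma with 0.1 or 1 added gave 0.13, 0.14 and 0.12 for *Fosl2*, 0.17, 0.17 and 0.17 for *Jun* and 0.19, 0.24 and 0.23 for *Jund* (-0.28 to 0.0563 with 1 library left out), and *Fosb* was 0.15 in limma with 0.1 added (-0.74 to 0.0879). For tamoxifen in the knockout, *Junb* was -0.0158 by library size, -0.29 with 16 libraries and -0.05005 and -0.0482 in limma (-0.15 to 0.13). In WT + TAM against WT, *Junb* ran from -0.83 to 0.0481, and *Myc* was 0.21 with 16 libraries (-0.19 to 0.0924). In the interaction *Junb* ran from -0.0118 to 0.86, and *Atf3* was 0.0173 and 0.0480 in limma (-0.53 to 0.41). For the averaged tamoxifen effect *Fosl1* was -0.0747 in limma with 1 added and *Junb* ran from -0.40 to 0.0353. With 16 libraries, RPKM came to 0.664 for *Fosb*, 5.34 for *Egr1* and 1.67 for *Myc* in WT and 46.2 for *Junb* in *Mtm1* KO. Shares came to 59.5% for *Fos* and 35.8% for *Fosl2* in WT and 30.6% for *Jun* and 30.4% for *Junb* in *Mtm1* KO, an alternative chosen after seeing the data. No paired analysis was possible because replicate numbers are not shared between groups. Groups of 3 and 4 mice limit which effects can be called, and RNA of whole muscle at 1 age gives neither the cells of origin nor protein or AP-1 activity.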
